A study of Macaca mulatta with 38 samples.

Results

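Clones that fed T cells and monocytes were compared within 1 rhesus macaque through lentiviral barcodes read from DNA of peripheral blood cells, after the barcodes of an expanded clone had been taken out. The comparison covers 10 of the 38 libraries of the series, the 5 labelled T and the 5 labelled Mono that share a day, at days 32, 119, 187, 266 and 365. The barcodes to take out were selected on read share in another cell type, as those with a mean of at least 10% over the 5 libraries labelled nRBC. 6 barcodes met that rule, each library was then rescaled to 100%, and 21765 of the 44423 barcodes of the table were listed in at least 1 of the 10 libraries.

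All libraries came from the animal ZL34, a male aged 4 years. Its CD34+ cells, a fraction that holds the blood stem and progenitor cells, were mobilised with G-CSF/AMD1300 (so spelled in the labels), transduced with a barcoded lentivirus library at a multiplicity of infection of 25, and returned after TBI. It was given cidofovir at 5 mg/kg each week against CMV reactivation, so every T and Mono library shares this treatment. With 1 animal and 1 library per lineage and day there is no biological replicate, and every spread below is over its serial days.

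A lentiviral barcode is a short random tag that the vector inserts into the genome of a cell and passes to all of its descendants, so cells with the same barcode belong to the same clone. A cell that took up several vectors carries several barcodes, which then travel together. Monocytes are short-lived cells that the marrow replaces all the time, whereas T cells descend from progenitors that settle in the thymus, mature there, live long and can divide in the periphery. Host cells that outlast the irradiation carry no barcode and are not seen by this assay. A barcode's read share mixes the number of cells in its clone with the vector copies per cell, and these cannot be told apart. The files hold no expression values, so the cell types are those of the labels and could not be checked by markers.

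The barcodes are numbered by mean read share over all 38 libraries. The sequences below are those of the barcodes that carry the results, as listed in the deposited table, which gives 50 bases for each. Capitals mark the variable part of 27 to 29 bases, and lower case marks the constant start and the sequencing adapter that follows. bc7, bc8, bc9 and bc10 were grouped by their similar course, and 1 of them led most T and Mono libraries.
bc7: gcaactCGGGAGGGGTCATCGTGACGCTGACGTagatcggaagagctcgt
bc8: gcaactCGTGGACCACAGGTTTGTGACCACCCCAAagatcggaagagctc
bc9: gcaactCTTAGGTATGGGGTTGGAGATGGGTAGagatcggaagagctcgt
bc10: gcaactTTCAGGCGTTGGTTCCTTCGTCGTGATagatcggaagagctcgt
bc11 led the Mono library of day 365, and bc87 led the T library of day 32.
bc11: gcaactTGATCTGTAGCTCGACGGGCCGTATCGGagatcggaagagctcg
bc87: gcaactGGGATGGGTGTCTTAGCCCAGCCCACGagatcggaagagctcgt
The last 7 stand for the other groups of barcodes that moved together. Of them, bc13 stands for a group much higher in T, bc22 for a group higher in Mono, and bc47, bc12, bc25 and bc32 for groups whose order varied by day. bc33, also of the bc32 group, led the Mono library of day 32.
bc13: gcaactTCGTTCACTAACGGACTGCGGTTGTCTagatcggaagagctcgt
bc47: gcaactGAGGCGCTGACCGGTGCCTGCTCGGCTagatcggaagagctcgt
bc22: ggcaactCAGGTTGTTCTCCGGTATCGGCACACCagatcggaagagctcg
bc12: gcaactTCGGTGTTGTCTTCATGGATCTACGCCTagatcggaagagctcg
bc25: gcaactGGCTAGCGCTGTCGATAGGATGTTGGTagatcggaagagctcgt
bc32: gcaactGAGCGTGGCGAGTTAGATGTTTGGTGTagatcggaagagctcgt
bc33: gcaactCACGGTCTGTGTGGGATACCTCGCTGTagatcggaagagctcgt
Any pair of these 13 sequences differed at 16 to 42 of the 50 positions, so none is a near-copy of another.

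The dropped barcodes, bc1 to bc6, had means of 14.3% to 19.1% in the nRBC libraries. The nearest barcode that was kept, bc11, had 1.36%, and the next, bc10, had 0.0488%. The dropped barcodes took 0, 0.413, 0.616, 5.40 and 14.4% of the reads of the T libraries of days 32, 119, 187, 266 and 365, against 0.256, 0.952, 14.6, 41.1 and 91.7% of the Mono libraries. These shares are part of how the barcodes were chosen and were not tested. The reads that remained were 1718938, 2918262, 3190287, 3027723 and 1869795 in T, and 1917111, 2595003, 2832091, 1839898 and 261982 in Mono. The Mono library of day 365 is therefore by far the shallowest of the 10.

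The table holds no count from 1 to 100, and a listed 0 was read as at most 100 reads, a limit inferred from the counts. The limit stands for at most 0.00582% of a T library and, up to day 266, at most 0.00544% of a Mono library, but for 0.0382% of the Mono library of day 365. A barcode at 0 in that library could hold a larger share than in any other, and every bound below uses each library's own limit.

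Both libraries of day 32 stood apart from the later ones. T listed 525, 8444, 2152, 4559 and 3524 barcodes on the 5 days, and Mono 10204, 802, 3071, 3664 and 191. On day 32 the median listed barcode held 0.201% of the T library and 0.00782% of the Mono library. 494 of the 525 T barcodes (94.1%) held at least 0.05%, against 42 of the 10204 Mono barcodes (0.412%). The T library of day 32 was thus a short list of similar shares, and the Mono library a long list of very small ones.

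Clonal diversity was measured as the effective number of barcodes (exponential of Shannon's entropy), which is the number of equally large barcodes that would give the same evenness. It was 479, 1370, 343, 518 and 582 in T on days 32, 119, 187, 266 and 365, against 8856, 48.1, 154, 425 and 4.57 in Mono. T was above Mono on 4 of 5 days and below it on day 32. The direction of day 32 turned with the listing limit, since its log2 ratio of T to Mono was -4.21 with all listed barcodes, 3.08 after each library was thinned to 261982 reads, and 3.56 with barcodes under 0.05% left out. Both cuts left out most Mono barcodes of that day, so they cannot decide its direction. Barcodes of at least 0.05% held 99.4% of its T reads and 3.89% of its Mono reads. The mean log2 ratio of T to Mono was 1.81 (SD 4.33, n = 5 days), with p = 0.3125 by exact permutation of signs over days, two-sided, where the smallest p that 5 days allow is 0.0625. Without day 32 the mean was 3.32, and without day 365 it was 0.52. The ranges of the T and Mono libraries overlapped.

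The number of barcodes that together held 50% of the reads was taken as a second measure. It was 206, 185, 35, 41 and 59 in T, against 3224, 12, 10, 44 and 1 in Mono, so that T was lower on days 32 and 266 and higher on the other days. From day 187 on, this number stayed between 35 and 59 in T and lay between 1 and 44 in Mono. On day 365 the single barcode bc11 held 77.7% of the remaining Mono reads. Without bc11, the effective number on that day was 589 in T and 85.2 in Mono. bc11 took 203682 of the 261982 remaining Mono reads of day 365. All Mono values of that day without bc11, here and below, thus rest on few reads and a limit above 0.0382%. The gap in effective number cannot be told apart from that limit.

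T and Mono shared a minority of the T list on each day, but from day 119 on a larger part of the T reads. Barcodes listed in both libraries of a day numbered 131, 436, 528, 1269 and 166, which is 25.0, 5.16, 24.5, 27.8 and 4.71% of the T list and 1.28, 54.4, 17.2, 34.6 and 86.9% of the Mono list. They held 27.3, 48.8, 65.0, 62.3 and 51.9% of T reads, and 1.50, 97.9, 76.7, 71.4 and 98.8% of Mono reads. From day 119 on, the barcodes listed in both therefore carried at least 48.8% of T reads and at least 71.4% of Mono reads. Exact Clopper-Pearson 95% intervals of these shares were narrow, 27.3 to 27.4% for T and 1.48 to 1.51% for Mono on day 32, and 51.8 to 52.0% for T and 98.8 to 98.9% for Mono on day 365. Reads were amplified by PCR with no molecular identifiers and are not independent molecules, so the intervals cover no more than counting error.

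Lists grow with depth, so the overlap was also taken on shares. The shared read share of a pair of libraries is the sum over barcodes of the lower of the paired shares, 0% for libraries with no barcode in common and 100% for equal ones. For T with Mono it was 1.50, 36.7, 49.1, 45.5 and 17.9% on the 5 days, with a mean of 30.1% (SD 20.1, n = 5 days). It was lowest on day 32 and highest on day 187. The main value of day 365 rests on bc11, since it was 45.6% once bc11 was dropped as well.

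**Figure D1:**
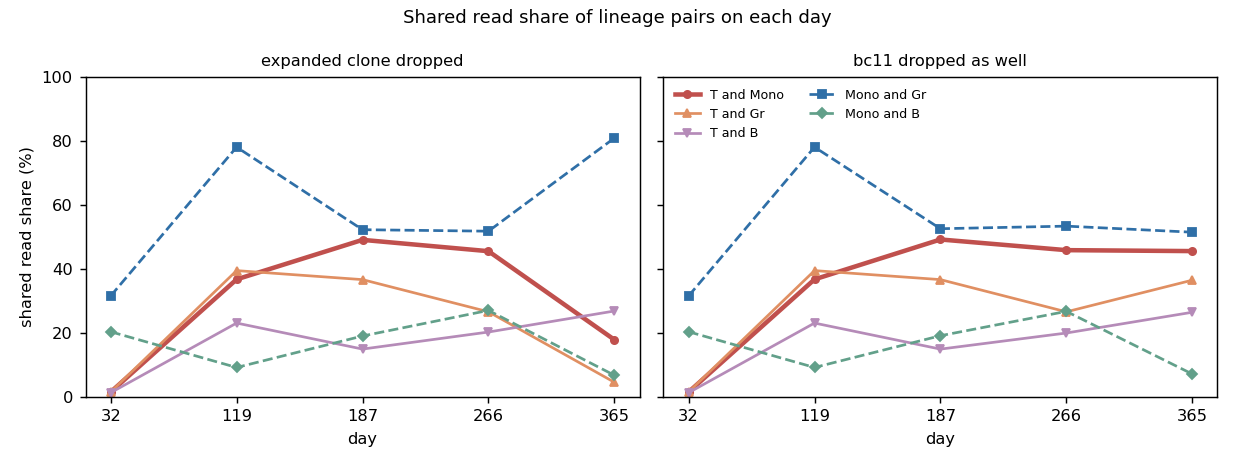
Shared read share in percent (vertical axis) of 5 pairs of lineages against the day (horizontal axis), with the expanded clone dropped (left) and with bc11 dropped as well (right); each point is 1 pair of libraries. T with Mono went to 49.1% on day 187, and its low value on day 365 is seen only with bc11 kept.

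The other pairs with the same libraries are given for scale. The libraries labelled Gr and B were rescaled in the same way, and since each pair uses the same T or Mono library, the pairs are not independent and were not tested against each other. T with Gr gave 1.51, 39.5, 36.7, 26.6 and 4.54%, and T with B gave 1.28, 23.1, 14.9, 20.3 and 26.8%. Mono with Gr gave 31.6, 78.1, 52.3, 51.8 and 80.9%, and Mono with B gave 20.3, 9.17, 19.0, 27.0 and 6.73%. Without bc11 the values of day 365 were 36.5% for T with Gr, 26.4% for T with B, 51.5% for Mono with Gr and 7.12% for Mono with B. Mono lay nearer to Gr than to T on each of the 5 days, also without bc11.

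The small overlap on day 32 came with a T library that had little in common with the later ones. Its 525 barcodes held 0.654, 0.493, 0.426 and 0.409% of the T reads of days 119, 187, 266 and 365. The 10204 barcodes of the Mono library of day 32 held 59.3, 64.5, 59.6 and 54.6% of those same T reads. They held 93.4, 78.0, 59.7 and 16.2% of the Mono reads of the same later days, and 72.9% on day 365 without bc11. Later T reads thus lay mostly in barcodes that had been listed in Mono, and not in T, on day 32. Lists of other lengths gave other shares, 54.1% of the T reads of day 119 for the 8814 barcodes of Gr and 36.2% for the 15812 barcodes of B on day 32.

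Libraries of consecutive draws were compared in the same way. The shared read share of consecutive T libraries was 0.654, 43.5, 63.2 and 67.1%, higher for each later pair. That of consecutive Mono libraries was 4.35, 55.5, 60.5 and 22.0%, or 49.2% for the last pair without bc11. Across lineages, T of each day against Mono of the next draw gave 0.0605, 38.2, 42.8 and 16.4%. Mono of each day against T of the next draw gave 16.7, 45.9, 49.7 and 42.7%. Mono before T was higher than T before Mono for all 4 intervals, and without bc11 for 3 of the 4, since T of day 266 against Mono of day 365 was then 49.6% and the reverse 42.5%. These pairs share libraries and were not tested.

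Lineage bias was called for each barcode and day where its shares differed at least 10-fold, with a 0 set to that library's limit. On day 32, 486 barcodes were called higher in T (4.59% of the 10598 listed in either library) and held 98.1% of T reads. On the same day 33 were called higher in Mono (0.311%) and held 3.28% of Mono reads. On day 119, 46 were called higher in T (0.522% of 8810) with 12.0% of T reads, and 0 were called higher in Mono (0%). The value of day 32 depends on the listing limit. Barcodes called higher in T held 0% of T reads on that day once each library was thinned to the reads of the shallowest, and 2.27% with barcodes under 0.05% left out, against 98.1% with all listed barcodes. After thinning, barcodes called higher in Mono held 100% of Mono reads. The limit is then at least 0.0382%, above the 0.00782% of the median Mono barcode of that day. Barcodes of at least 0.05% held 99.4% of T reads and 3.89% of Mono reads. Both settings thus leave out most Mono barcodes of day 32 and cannot decide its bias.

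On day 187, 123 barcodes were called higher in T (2.62% of 4695) and held 15.3% of T reads, and 40 were called higher in Mono (0.852%) and held 3.75% of Mono reads. On day 266 the numbers were 52 in T (0.748% of 6954) with 15.5% of T reads and 98 in Mono (1.41%) with 10.6% of Mono reads. On day 365 they were 1 in T (0.0282% of 3549) with 1.01% of T reads and 8 in Mono (0.225%) with 78.2% of Mono reads. bc11 was among the barcodes called higher in Mono on the last 3 days, and the others called with it held 2.31, 4.84 and 0.418% of Mono reads. With bc11 dropped, the libraries were rescaled and the calls made anew, which gave another set of barcodes. Those called higher in Mono then held 2.41, 5.62 and 23.9% of Mono reads. The values of day 365 also moved under other settings. With the expanded clone kept, barcodes called higher in T held 52.7% of T reads and those higher in Mono 0% of Mono reads, and after thinning the T value was 17.1%. Many barcodes lay too near the listing limit for a 10-fold difference to be seen. Barcodes listed in 1 lineage and too low to call numbered 28, 7979, 1520, 3250 and 3358 in T and 10040, 366, 2505, 2312 and 19 in Mono. They held 0.520, 48.8, 25.3, 26.2 and 48.1% of T reads, and 95.2, 2.10, 21.9, 24.8 and 0.829% of Mono reads. At the Mono limit of day 365, a T barcode at 0 in Mono had to exceed 10 times 0.0382% to be called.

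The rest of the reads lay in barcodes found in both lineages within 10-fold. These held 1.36, 39.1, 59.3, 57.7 and 49.7% of T reads, and 0.363, 97.4, 74.2, 64.5 and 20.9% of Mono reads. On days 187 and 266 they were the largest class in both lineages.

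**Figure D2:**
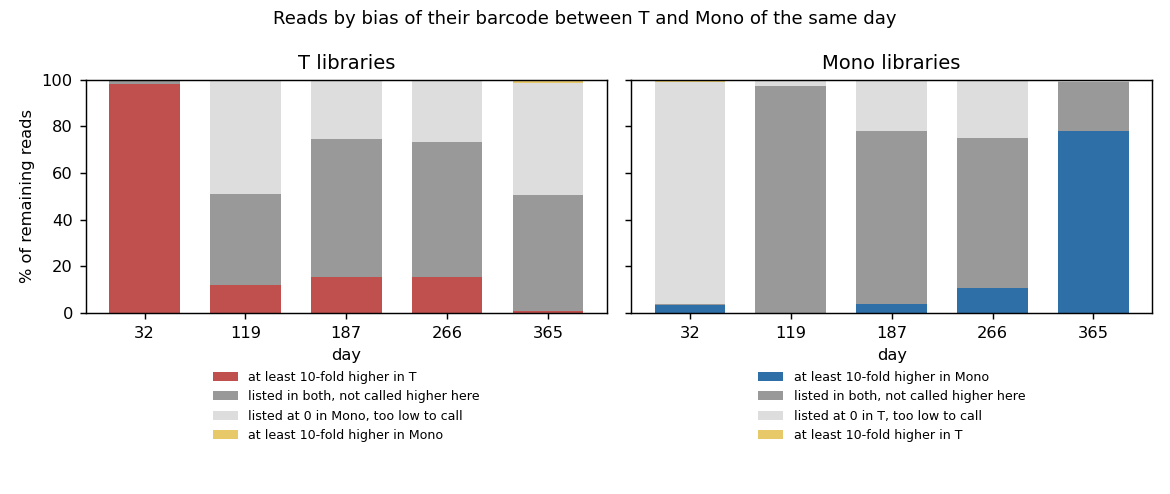
Percent of the remaining reads (vertical axis) by the class of their barcode on each day (horizontal axis), in T libraries (left) and Mono libraries (right). Reads of barcodes at least 10-fold higher in T make up 98.1% of the T library of day 32 (0% after thinning) and 1.01% on day 365 (17.1% after thinning), and reads of barcodes at least 10-fold higher in Mono make up 78.2% of the Mono library of day 365. Thinning leaves out most Mono barcodes of day 32, so its value for that day cannot decide the bias.

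Barcodes that were called on 1 day were followed on the later days, which the call had not used. Shares of all listed barcodes include those too low to call, 1520 in T and 2505 in Mono on day 187. The followed barcodes had been abundant enough to be called, so these shares are not a matched background. Of the 46 higher in T on day 119, 37 were listed in T and 9 in Mono on day 187, and 24 were again called higher in T and 0 higher in Mono, where 2.62% and 0.852% of all listed barcodes were. They held 5.95% of T reads and 0.0891% of Mono reads on day 187. On day 266, 19 were called higher in T and 0 in Mono, where 0.748% and 1.41% of all listed barcodes were, with 5.09% of T reads and 0.0905% of Mono reads. On day 365, 0 were called in either direction, where 0.0282% of all listed barcodes were higher in T and 0.225% higher in Mono, with 5.85% of T reads and 0.597% of Mono reads, or 5.92% and 2.68% without bc11. 5 of the 46 were the bc47 group described below, which held 6.01% of T reads on day 119 and 3.16, 2.51 and 2.42% on the later days. Barcodes that move together are not separate observations, so these counts are not of independent barcodes. The barcodes higher in T on day 119 thus stayed above Mono in total share on the 3 later days. They were low in the other lineages too, with 0.335% of B reads and 0.411% of Gr reads on day 119.

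The 123 barcodes higher in T on day 187 held 14.4% of T reads and 0.387% of Mono reads on day 266, and 16.6% of T reads and 1.75% of Mono reads on day 365, or 16.8% and 7.85% without bc11. On day 266, 102 were listed in T and 31 in Mono, and 32 were called higher in T and 0 higher in Mono, against 0.748% and 1.41% of all listed barcodes. 12 of the 123 were the bc13 and bc47 groups described below, with 7.13% of T reads on day 187. On day 266 the bc13 group held 7.31% and the bc47 group 2.51% of T reads, so much of the 14.4% lay in barcodes that moved together. T libraries of later days, which have no part in the comparison, gave the 123 barcodes 16.5% on day 393, 40.6% on day 494, 34.7% on day 536 and 22.5% on day 553. The 40 barcodes higher in Mono on day 187 held 0.885% of T reads and 8.11% of Mono reads on day 266, or 0.421% and 2.51% without bc11, where 0 were called higher in T and 11 higher in Mono, against the same 0.748% and 1.41%.

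The barcodes higher in Mono on day 32 had another course. The 33 of them were all listed at 0 in T on that day. On day 119 they held 23.0% of T reads and 52.8% of Mono reads, with 6 called higher in T, where 0.522% of all listed barcodes were. 5 of these 6 were the bc47 group, whose barcodes moved together, so the 6 are not independent. The 33 barcodes held 27.2, 24.3 and 19.5% of T reads on days 187, 266 and 365, against 36.3, 28.3 and 7.07% of Mono reads. Without bc11 the values of day 365 were 19.7% of T reads and 31.8% of Mono reads, so the order on that day turned with bc11. 19 of the 33 belong to the groups described next.

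Many of the most abundant barcodes moved in groups. The groups were formed among barcodes that reached 1% in some library of the series, by complete linkage at a Pearson's r of at least 0.95 over the 38 libraries, so their common course is how they were chosen. 7 groups with 43 barcodes remained once the expanded clone was out. Together with bc11 and bc87 they held 1.07, 37.8, 51.4, 49.8 and 44.8% of T reads, and 2.67, 86.0, 67.8, 47.9 and 91.4% of Mono reads.

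The bc13 group, of 7 barcodes, was from day 187 on the most abundant of those much higher in T. It held 0, 0.0168, 3.97, 7.31 and 8.71% of T reads, against 0, 0, 0.0248, 0.0239 and 1.13% of Mono reads. Its T share was above its Mono share by 160-fold on day 187, 306-fold on day 266 and 7.71-fold on day 365. The last value depends on bc11, since without that barcode it was 1.74-fold, with 8.81% of T reads and 5.07% of Mono reads. As a share of all deposited Mono reads, the expanded clone included, the group had 0.0141% on day 266 and 0.0940% on day 365. Single members held 0.806 to 1.70% of T reads and 0.0935 to 0.215% of Mono reads on day 365. The group was at 0.0721, 0.0669 and 0.143% in B and 0, 0 and 0.468% in Gr on days 187, 266 and 365.

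The bc47 group, of 5 barcodes, was higher in Mono first and in T afterwards. It held 0, 6.01, 3.16, 2.51 and 2.42% of T reads, against 0.596, 0.327, 0.0227, 0.0141 and 0.429% of Mono reads. On day 32 Mono was at least 20.5-fold above T with each T barcode at its limit. T was above Mono by 18.4-fold, 139-fold, 178-fold and 5.64-fold on the later days, and by 1.27-fold on day 365 without bc11. The 5 members lay close together, at 1.12 to 1.27% of T reads and 0.0556 to 0.0745% of Mono reads on day 119, and their likeness is part of how they were grouped.

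The bc22 group, of 3 barcodes, was below Mono in T on all 5 days. It held 0, 1.33, 1.20, 1.33 and 1.16% of T reads, against 0.213, 5.05, 5.55, 6.95 and 1.44% of Mono reads. Its log2 ratio of T to Mono was -1.93, -2.21, -2.38 and -0.31 from day 119 on, and -2.46 on day 365 without bc11. Its T share hardly moved between days 119 and 365, and in Gr it held 3.69, 3.19, 5.17 and 0.299%.

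bc11 was higher in Mono than in T on each day that listed it. It was at 0 in both lineages on days 32 and 119. It then held 0.0151, 0.466 and 1.21% of T reads, against 1.44, 5.74 and 77.7% of Mono reads. Mono was above T by 95.5-fold, 12.3-fold and 64.5-fold on days 187, 266 and 365. Of all deposited reads, bc11 held 0.0150, 0.441 and 1.03% in T on those days, against 1.23, 3.38 and 6.47% in Mono. The folds of days 266 and 365 thus depend on the drop and rescaling. The 6 dropped barcodes held 91.7% of Mono reads on day 365, against 14.4% of T reads. With the expanded clone kept, barcodes called higher in Mono held 0% of Mono reads on day 365. bc11 held 95.6% of the remaining Gr reads on day 365, and in B it reached 1.22% on day 266. It was the barcode nearest below the 10% rule in nRBC, so its place among the kept barcodes is set by where that threshold lies.

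The bc7 group, of 4 barcodes, held more reads than any other group in both lineages on days 119, 187 and 266. It held 0, 11.0, 26.1, 23.9 and 18.7% of T reads, against 0.262, 26.3, 36.6, 27.1 and 7.12% of Mono reads. Its log2 ratio of T to Mono was -1.26, -0.49, -0.19 and 1.39 from day 119 on. On day 365 without bc11 it was -0.76, with 18.9% of T reads and 32.0% of Mono reads, so the direction on that day turned with bc11.

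bc10 did not keep step with the rest of this group on every day. Its share over the mean of bc7, bc8 and bc9 was 0.128 in T and 0.239 in Mono on day 119, with 0.448% of T reads and 1.95% of Mono reads. It was 0.954, 0.956 and 1.11 in T on the later days, against 1.02, 1.02 and 1.37 in Mono. In Gr the same ratio was 0.212, 0.393, 0.414 and 1.02 on days 119 to 365. bc7, bc8 and bc9 lay between 3.17 and 3.75% of T reads and between 8.0 and 8.34% of Mono reads on day 119.

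The 3 other groups changed order between days. The bc12 group, of 11 barcodes, held 0, 9.27, 10.5, 8.95 and 8.15% of T reads, against 0.337, 25.0, 9.16, 3.70 and 1.99% of Mono reads, with log2 ratios of -1.43, 0.20, 1.27 and 2.04 from day 119 on. The bc25 group, of 4 barcodes, held 0, 5.63, 3.86, 3.05 and 2.41% of T reads, against 0.159, 4.43, 9.97, 1.04 and 0.793% of Mono reads, with log2 ratios of 0.35, -1.37, 1.55 and 1.60. The bc32 group, of 9 barcodes, held 0, 4.58, 2.59, 2.32 and 2.09% of T reads, against 1.10, 24.9, 5.04, 3.34 and 0.771% of Mono reads, with log2 ratios of -2.44, -0.96, -0.52 and 1.44. All 3 stood above Mono in T on day 365, and without bc11 all 3 stood below it, with log2 ratios of -0.12, -0.55 and -0.71. Without bc11 the Mono share of day 365 was 8.93% for the bc12 group, 3.56% for the bc25 group and 3.46% for the bc32 group.

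bc87, the leading barcode of the T library of day 32, held 1.07% of T reads there and was at 0 in Mono, so T was at least 204-fold above Mono. It was at 0 in T and in Mono on the 4 later days. Of the 7 groups, none was listed in T on day 32, while 6 of the 7 were listed in Mono.

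**Figure D3:**
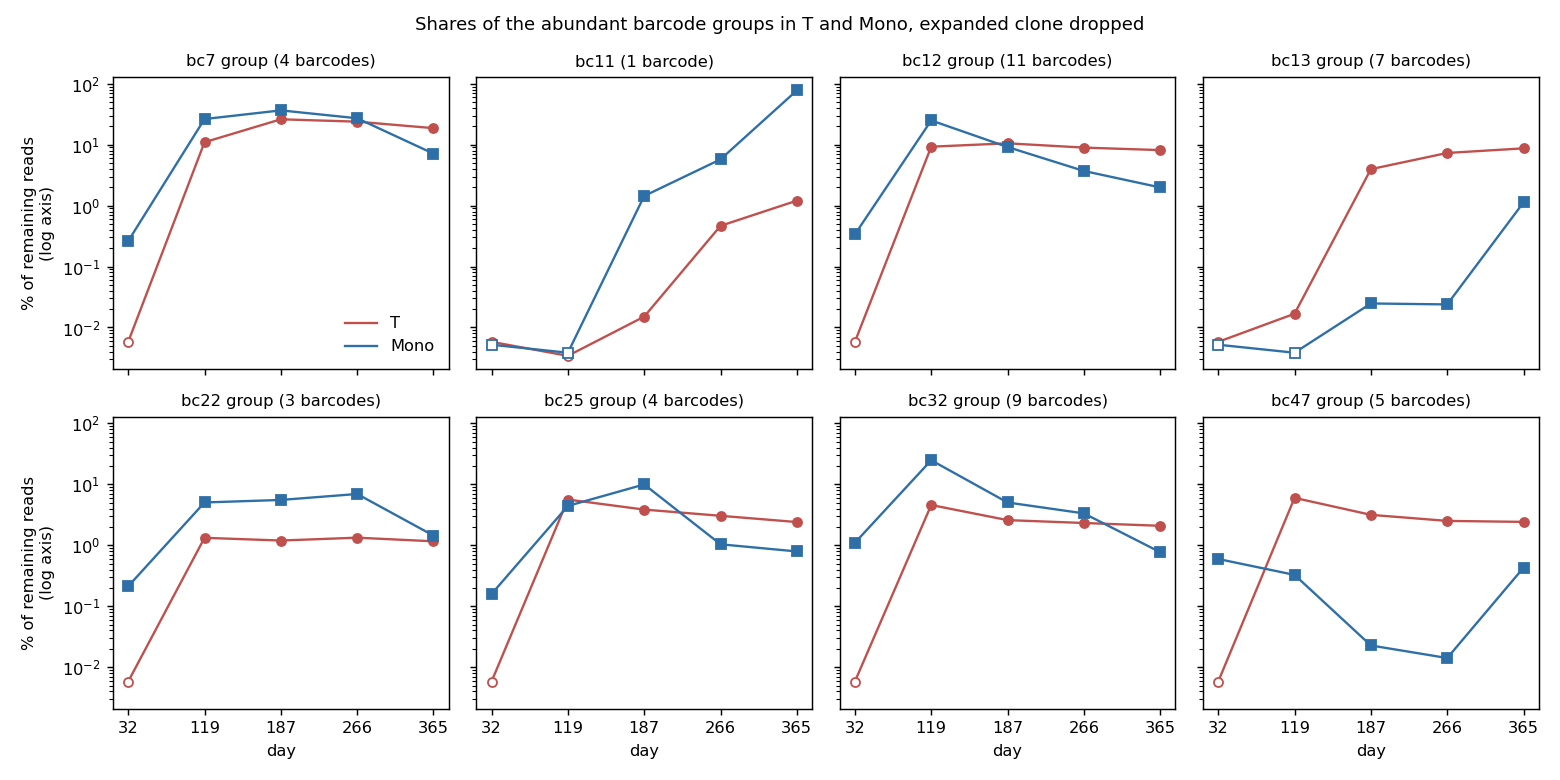
Percent of the remaining reads (vertical, log axis) held by bc11 and by 7 groups of barcodes in T (circles) and Mono (squares) against the day; open symbols are groups listed at 0, drawn at the listing limit of 1 barcode. The bc13 and bc47 groups lie far higher in T on days 187 and 266, bc11 and the bc22 group lie higher in Mono, and the other groups cross.

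**Figure D4:**
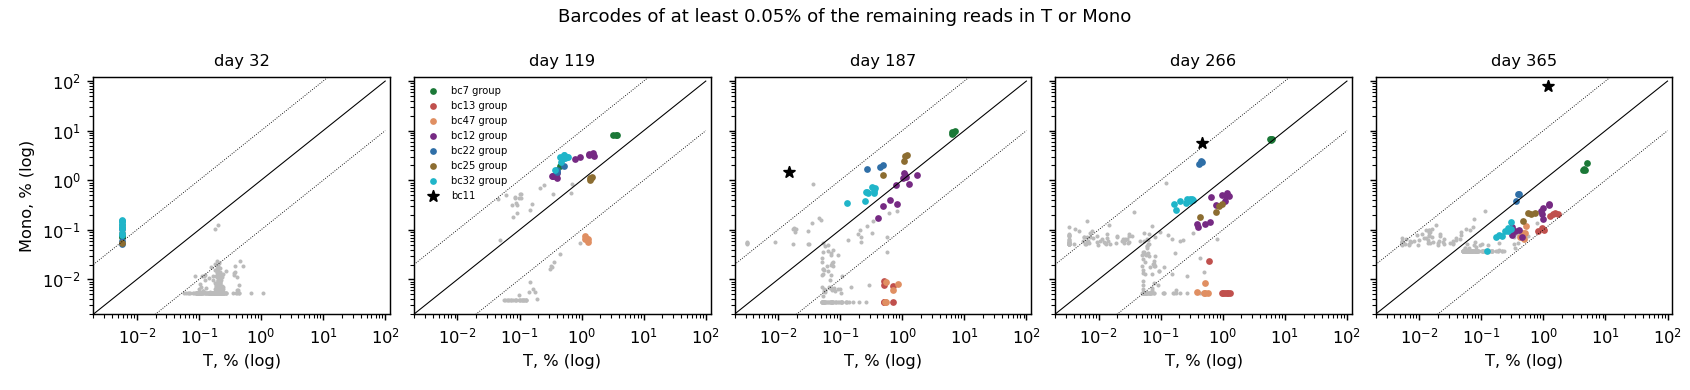
Mono share against T share, both in percent of the remaining reads on log axes, for barcodes of at least 0.05% in either library of the day; the solid line marks equal shares and the dotted lines a 10-fold difference, and a 0 is drawn at the library's limit. bc11 lies above the upper dotted line on days 187, 266 and 365. On day 32, 366 of the 494 T barcodes of at least 0.05% lie at the Mono limit, and 40 of the 42 Mono barcodes at the T limit.

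At a floor of 0.05%, which stands above every listing limit, T had 494, 89, 147, 142 and 193 barcodes and Mono 42, 58, 61, 118 and 116. Of these, 2, 56, 43, 49 and 61 were above the floor in both. Above the floor in T and at 0 in Mono were 366, 22, 55, 50 and 124 barcodes, with 72.1, 2.05, 7.86, 12.0 and 10.0% of T reads. Above the floor in Mono and at 0 in T were 40, 0, 4, 23 and 8, with 3.67, 0, 0.219, 1.44 and 0.455% of Mono reads. As a share of each list above the floor, these were 74.1, 24.7, 37.4, 35.2 and 64.2% of the T list, against 95.2, 0, 6.56, 19.5 and 6.90% of the Mono list. By listed zeros, abundant barcodes with no partner were thus a larger share of the Mono list on day 32 and of the T list on the other days. These zeros stand for unequal limits, 0.0382% in Mono and 0.00535% in T on day 365. With the 0.05% floor on both sides, 0.405, 62.9, 29.3, 34.5 and 31.6% of the T list had a partner. The same barcodes were 4.76, 96.6, 70.5, 41.5 and 52.6% of the Mono list, and these shares differ only by the lengths of the lists.

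Over the 10 libraries, 8050 of the 21765 barcodes (37.0%) were listed in T libraries only, 8241 (37.9%) in Mono libraries only and 5474 (25.2%) in both. 6635 and 7209 of those in 1 lineage only were listed in a single library of T and of Mono. The 5474 barcodes listed in both held 32.8, 69.9, 82.4, 83.3 and 85.5% of T reads, and 40.1, 99.2, 90.2, 83.8 and 99.4% of Mono reads. By reads, the barcodes seen in both lineages on some day were thus the main class in both lineages from day 119 on.

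Barcodes listed on all 4 days after day 32 were more numerous in T than in Mono. From day 119 on, 480 barcodes were listed in T on all 4 days, 109 in Mono on all 4 days, and 73 in both lineages on all 4 days. The 73 held 37.6, 49.8, 44.1 and 37.8% of T reads, and 89.1, 68.8, 45.0 and 15.1% of Mono reads. Without bc11 they held 38.3% of T reads and 67.8% of Mono reads on day 365, so the order on that day turned with bc11. 119 barcodes were listed in T on all 4 days and at 0 in Mono on all 4, with 2.27, 3.30, 2.59 and 3.07% of T reads, and 3 barcodes showed the opposite. Of the 119, 60, 79, 69 and 68 were listed in B and 18, 34, 38 and 0 in Gr on the 4 days. The shallow Mono library of day 365, with 191 listed barcodes, bounds the Mono and shared counts. No barcode was listed in all 10 libraries.

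Single barcodes were tested between T and Mono over the 5 days with day as a block. 183 barcodes held at least 0.05% in at least 2 of the 10 libraries, of which 162 were listed in both lineages, 19 only in T and 2 only in Mono. edgeR's quasi-likelihood test called 0 of them (0%) at an adjusted p of 0.05, with 28 at an unadjusted p under 0.05, of which 25 were higher and 3 lower in T, and with a lowest Benjamini-Hochberg adjusted p of 0.29. The mean share over days was higher in T for 123 and lower in T for 60, and the fitted log2 ratio had a median of 1.82 over the 183, or 1.49 with the 21 barcodes at 0 in a whole lineage set to their bound. A barcode could pass the filter through T alone, and T had more barcodes above 0.05% than Mono on each day. The excess of barcodes higher in T may thus follow from the filter and cannot be read as a general bias. DESeq2 on the same counts called 47 higher in T (25.7%) and 13 lower in T (7.1%), so the number of calls depends on the tool. Serial days of 1 animal are not independent samples, which both tests take them to be.

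The groups were read against these values. All 7 members of the bc13 group had a log2 ratio above 0, with a fitted median of 10.16 and edgeR adjusted p of 0.29 to 0.474, and DESeq2 called 4 of the 7 higher in T. The fitted values rest on listed zeros, since 4 of the 7 were listed in 1 Mono library only, and the ratio of mean shares over days was 14.4-fold to 24.4-fold for its members. All 5 members of the bc47 group were above 0, with a fitted median of 4.47, edgeR adjusted p of 0.58 to 0.632 and ratios of mean shares of 7.96-fold to 11.9-fold. Medians were -2.50 in the bc22 group, -1.51 in the bc32 group, -0.93 in the bc7 group, -0.31 in the bc25 group and -0.24 in the bc12 group, and edgeR called 0 of their 31 members. bc11 averaged 0.337 ± 0.525% in T and 17.0 ± 34.0% in Mono (SD, n = 5 days), with a log2 ratio of -4.71 ± 1.46 (SE) and an adjusted p of 0.29 in edgeR. The spread over days exceeds both means, and the value for bc11 in Mono rests on day 365.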

How the data were processed

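The authors deposited read counts per barcode in 1 table of 44423 sequences by 38 libraries. That these are counts was judged from the values, which are whole numbers. Per the labels' protocols, 28 cycles of PCR on 200 ng of DNA retrieved the barcodes. How reads were called as barcodes, and on which sequencer, is not given in the sources. Column sums ran from 766039 to 3832849 reads. No library held a count from 1 to 100, and the lowest count above 0 was between 101 and 117 in each, so a 0 was read as at most 100 reads and a column sum is not the whole depth.

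Libraries were grouped by the labels' cell type and matched by day. Barcodes with a mean of at least 10% over 5 nRBC libraries were dropped and the rest rescaled. Single barcodes were tested with edgeR 4.0.16 (R 4.3.3; quasi-likelihood, day as a block, column sums left after the drop as library sizes, a minimum of 0.05% in 2 libraries, Benjamini-Hochberg over 183 barcodes). The standard error is the size of the log2 ratio divided by the root of F. DESeq2 1.42.0 was an alternative. The edgeR step was also run on simulated counts with known changes as a check of the code, and no result here rests on it. Day pairs the libraries because each pair is from the same animal and draw, per the labels. Other measures used Python 3.11.15 with numpy 2.4.6, pandas 2.3.3 and scipy 1.17.1.

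Barcodes named are the highest of each of the 10 libraries, the 5 with the highest mean in T, in Mono and by the lower of both means, and up to 5 called in each direction that held 0.5% in some library, with their groups. Group similarity was taken on log2(percent + 0.01). The barcodes, groups and tests were chosen with earlier results of these data known. Alternatives were TMM factors, DESeq2, a barcode filter at 0.01% or none, no day block, 0 set to 100 reads, the expanded clone kept, the drop at 1% in nRBC, near-copies within 2 mismatches dropped, groups summed, thinning to 261982 reads, only barcodes of at least 0.05%, the inverse Simpson index, bias at 5-fold and leaving out each day. The labels name no batch, and no batch term was fitted.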

Additional observations from a re-analysis of the deposited data

Results flagged for a closer look

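In 9 of 31 sets of 5 libraries, 1 library lay far from the other 4. Chance flags about 1 in 20 such sets, and these sets are not independent. That rate does not hold for barcodes named for their share in these same libraries. bc11 was named as the highest in Mono on day 365 and bc87 as the highest in T on day 32, so their flags follow in part from the naming. The effective number of barcodes was 1370 in T on day 119, against 582 in the next highest T library, and 8856 in Mono on day 32, against 425 in the next highest Mono library. The barcodes listed in both lineages held 1.50% of Mono reads on day 32, against 71.4% or more on the other days. Barcodes at least 10-fold higher in T held 98.1% of T reads on day 32, against 15.5% or less later. Barcodes at least 10-fold higher in Mono held 78.2% of Mono reads on day 365, against 10.6% or less on the other days. The leading barcode of Mono held 77.7% on day 365, which is bc11, and the same value stands apart among the shares of bc11 in Mono. bc33 held 3.20% of Mono reads on day 119, against 0.603% in the next highest Mono library. bc87 held 1.07% of T reads on day 32 and was at 0 in the other T libraries.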

How the results depend on the processing

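The number of barcodes called between T and Mono depended on the tool and the filter. It was 0 of 183 with edgeR and the day block, and 0 with TMM factors, a filter at 0.01%, each 0 set to 100 reads, the expanded clone kept, near-copies dropped, groups summed, and in each fit without 1 day (0 to 0 calls). DESeq2 called 60, of which 47 were higher and 13 lower in T, bc11 among the lower. With no replicate block, that is without day, edgeR called 17, of which 15 were higher and 2 lower, and DESeq2 called all 17 too. With no filter, edgeR called 4776, of which 3914 were higher and 862 lower, and 4718 of them were listed in 1 of the 10 libraries only. With the drop at 1% in nRBC, which removes bc11, edgeR called 2, both lower in T and at 0 in all T libraries, bc531 and bc641, named after their values were seen. The log2 ratio of bc12, -0.24, turned to 0.028 with each 0 at 100 reads and 0.39 with the expanded clone kept, and ran from -0.96 to 0.61 over the fits without 1 day (0.61 without day 32, 0.15 without day 119). bc7, bc8, bc9, bc10, bc11 and bc33 kept their direction in every fit that held them, but the sizes moved. Without day 32, where T listed them at 0, bc7, bc8 and bc9 went from -0.92, -0.91 and -0.94 to -0.11, -0.11 and -0.13. Likewise bc10 went from -1.28 to -0.43 and bc33 from -1.52 to -0.64, while bc11 went from -4.71 to -5.28.

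The mean log2 ratio of effective numbers, 1.81, was 1.91 with the expanded clone kept, 0.93 with the drop at 1%, 1.94 with groups summed, 1.14 by the inverse Simpson index, 1.95 after thinning and 2.07 for barcodes of at least 0.05%. In the last 2 T was higher on 5 of 5 days, with p = 0.0625 in the exact permutation test, the smallest that 5 days allow. Both settings leave out most Mono barcodes of day 32, so they cannot decide the direction of that day, and this p rests on it. Without 1 day it ran from 0.52 to 3.32. The mean shared read share, 30.1%, ran from 25.4 to 37.3% without 1 day, the T reads in shared barcodes from 47.6 to 57.0%, and the Mono reads from 61.9 to 86.2%. The T reads in T-biased barcodes averaged 28.4%, with 11.0% without day 32, 35.2% without day 365, 13.3% after thinning and 5.74% for barcodes of at least 0.05%. The Mono reads in Mono-biased barcodes averaged 19.2%, with 4.40% without day 365, 23.9% without day 119, 7.04% with the drop at 1%, 4.31% with the expanded clone kept and 38.1% after thinning. The thinned means include day 32 at 0% for T and 100% for Mono, where most Mono barcodes fell below the limit. The 261982 reads left in Mono on day 365, and its listing limit of 0.0382%, bound all statements on barcodes missing from Mono on that day. No kept barcode was within 2 mismatches of a dropped one, so that alternative equals the main values.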
